A study of Mus musculus with 5 samples.

Results

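Penk-positive synovial sarcoma (SyS) cells were the tumor cells of 5 mouse tumors in which at least 1 molecule of the Penk transcript was counted. They were chosen by measured values in 2 steps. A SyS gate kept cells with at least 750 genes, at most 25% mitochondrial molecules, at least 3 of the 8 genes Adgrb3, Sox11, Tle1, Hmga2, Reln, Nxph1, Epha5 and Gpc3, and at most 1 molecule summed over Ptprc, Cdh5, Csf1r and Rgs5, which mark immune cells, endothelium, macrophages and pericytes. Of the 30700 cells that passed the gate, 1431 (4.66%) carried a Penk unique molecular identifier (UMI, 1 counted transcript molecule), out of 51670 cells in all. Each member was compared with 3 Penk-negative gate cells of the same tumor that were nearest in total UMIs, 4293 cells in all.

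The tumors came from hSS2 mice, which express the human SS18::SSX2 fusion, the oncogene of SyS, in hindlimb tissue after injection, as pups, of TATCre, a Cre protein that enters cells. All 5 carried this genotype and were harvested at morbidity, without further treatment or a normal control. The study describes its mice as a mixed strain (CB57Bl/6-svJ), a few months old and of both sexes, without giving age or sex for each tumor. They differed in the histology label of the adjacent tissue: BP (biphasic) for 2 tumors, and MP (monophasic), MP+BP and PD+MP (PD, poorly differentiated) for 1 tumor each, so that histology and tumor could not be told apart. The labels of both BP tumors begin with the same number, whose meaning is not given, so they may not be independent animals. Values for the 5 tumors are given below in the order BP replicate 1, BP replicate 2, MP, MP+BP and PD+MP, and levels are in CPM, the UMIs of a gene scaled to a common library total, taken over the summed cells. The members numbered 255, 458, 43, 526 and 149, so MP rests on far fewer cells than the other tumors.

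Penk encodes proenkephalin, a secreted precursor that prohormone convertases and carboxypeptidases cut into Met- and Leu-enkephalin. These short opioid peptides act on delta and mu opioid receptors, are scavenged by the atypical receptor Ackr3, and are degraded by peptidases such as neprilysin (Mme). The gene is best known from neurons and adrenal chromaffin cells, but it is also expressed in mesenchymal tissues, among them developing bone, cartilage and fibroblasts. SyS is a soft tissue sarcoma whose cells can take spindle, glandular or poorly differentiated forms.

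An EGFP transcript was detected in the members of every tumor. The labels list EGFP as a feature without saying what carries it, and it is read here, from background knowledge, as the reporter of the hSS2 allele. EGFP, which the gate did not use, was at 48.4, 35.6, 34.0, 35.3 and 27.1 CPM in the members and at 41.0, 34.9, 29.9, 32.0 and 38.2 CPM in the matched cells. The members were therefore higher in 4 tumors and lower in PD+MP, and the log2 difference over the tumors was 0.07 ± 0.11 (SE, n = 5 pairs; edgeR adjusted p = 0.85). An EGFP UMI was found in 18.8% (PD+MP) to 56.9% (BP replicate 1) of members, and in 0.304% to 1.59% of the cells of a macrophage gate and 0% to 1.02% of those of an endothelial gate. In PD+MP the share was 18.8% in members (exact 95% binomial interval 12.9 to 26.0) and 27.7% in matched cells (23.6 to 32.1). EGFP was singled out after its values were seen.

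Sox11, a neurodevelopmental transcription factor, and Adgrb3, an adhesion receptor, belonged to the gate, so their levels are a description. Sox11 was at 124, 109, 197, 122 and 186 CPM in the members and at 145, 108, 170, 126 and 106 CPM in matched cells. Adgrb3 was at 2083, 2821, 1769, 1495 and 1404 CPM in members, below the matched level of 2136, 3234, 2048, 1901 and 2153 CPM in all 5 tumors. The median member had 6 or 7 of the 8 gate genes.

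Penk was a low-count gene in most members. Penk lies on chromosome 4 at 4133531 to 4138819, on the minus strand (GRCm38, GENCODE M21, ENSMUSG00000045573). Just inside the threshold, 920 members (64.3%) had 1 Penk UMI, 344 had 2 to 4 and 167 (11.7%) had 5 or more, whereas every cell just outside had 0. Those 167 cells held 51.9% of the 3770 Penk UMIs counted in the members. The highest count in a cell was 32, 22, 28, 54 and 56 UMIs. The members of PD+MP were the richest, with 586.8 CPM against 85.4 to 185 CPM in the members of the other tumors, and 41 of its 149 members (27.5%) had at least 5 UMIs. Deeper cells had more chance of a Penk UMI: the members' median total was 18912, 12028, 12614 and 11222 UMIs in the first 4 tumors, above the 11109, 9512, 9891 and 7546 UMIs of all Penk-negative gate cells, but in PD+MP it was lower, with 6692 against 9060. Matching brought the medians to within 5 UMIs of each other in every tumor.

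At one common depth the share of Penk-positive cells still differed between tumors. With every gate cell thinned to 4000 UMIs and shallower cells left out, it was 2.17% (exact 95% interval 1.72 to 2.68) and 2.79% (2.41 to 3.21) in the BP tumors. It was lowest in MP, with 23 of 4457 cells or 0.516% (0.327 to 0.773), highest in MP+BP with 4.60% (4.05 to 5.18), and 1.57% (1.25 to 1.95) in PD+MP. Without thinning the shares were 6.07%, 5.95%, 0.825%, 7.63% and 2.23%. Droplets also take up free RNA. Macrophage gate cells, which should lack Penk, had a Penk UMI in 0.541%, 0.493%, 0.242%, 0.599% and 0.427% of cells thinned to the same depth, at median totals of 7264, 5598, 7217, 5385 and 6666 UMIs against 12664, 10458, 11325, 9376 and 10919 UMIs for the SyS gate, before thinning. The interval of MP (0.327 to 0.773) lies within that of its own macrophages (0.006 to 1.34), so that in this tumor the share of all gate cells could not be told from background. Intervals cover counting error only.

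**Figure D1:**
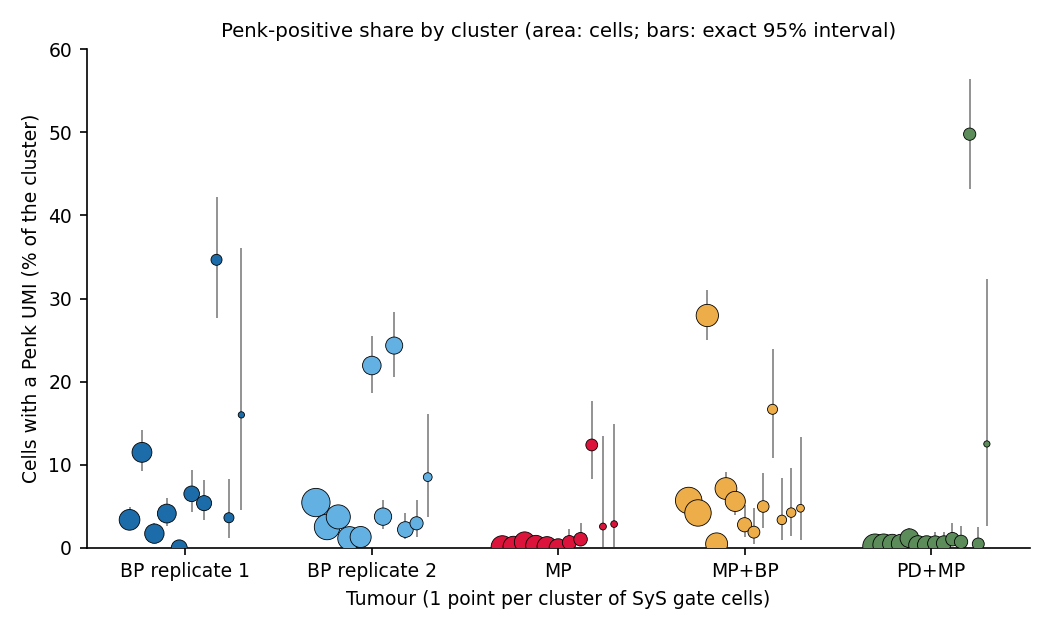
Share of cells with a Penk UMI (y axis, percent) in each cluster of SyS gate cells, by tumor (x axis); each point is a cluster, its area grows with the number of cells, and bars are exact 95% binomial intervals. The highest share of a cluster ranges from 12.4% in MP to 49.8% in PD+MP.

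The members were unevenly spread over the tumor cell clusters. Clusters were built in each tumor without Penk and without the gate genes, which gave 10 to 14 clusters a tumor. In BP replicate 1, a cluster of 176 cells had a Penk UMI in 34.7% of its cells, against a median of 4.75% over its 10 clusters. In MP the richest cluster, of 210 cells, held 26 of the 43 members at a share of 12.4% (exact 95% interval 8.25 to 17.6), above the 0.398% of its macrophages not thinned, and the median over clusters was 0.631%. In MP+BP a cluster of 869 cells was 28.0% positive and held 243 of the 526 members. In PD+MP a cluster of 229 cells was 49.8% positive and held 114 of the 149 members, whereas the median over clusters was 0.502%. These shares describe the cells that were clustered and were not tested.

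BP replicate 2 held 2 Penk-rich clusters of different make-up. One, of 588 cells, was 21.9% positive and collagen-rich, with Col1a1 at 3195 CPM, Sst at 1233 CPM and Adgrb3 at 742 CPM. The other, of 489 cells, was 24.3% positive with Col1a1 at 27.9 CPM and Adgrb3 at 3267 CPM. Its leading genes were Car3, a carbonic anhydrase, Ecrg4, Cp, which encodes ceruloplasmin, and Ahsg, which encodes fetuin-A. The first cluster held 27 of the cells with at least 5 Penk UMIs and the second 3. In the other 4 tumors, the richest cluster had Col1a1 at 515 to 1921 CPM. Collagen genes or Mgp led the gene list of the richest cluster in all tumors but BP replicate 2: Col3a1 and Col1a1 in BP replicate 1, Col3a1 in MP, and Mgp in MP+BP and PD+MP. EGFP in the 5 richest clusters was at 27.6 to 37.9 CPM.

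Members also lay near each other in expression space. Among the 30 nearest neighbors of a member, 17.1%, 17.2%, 9.77%, 20.6% and 43.3% were Penk-positive, against 7.35%, 4.87%, 0.62%, 6.62% and 2.00% of the neighbors of matched cells. The share was higher for the members in all 5 tumors, by 17.3 ± 13.6 percentage points on average (SD, n = 5; exact sign-flip permutation test, two-sided p = 0.062, the smallest that 5 tumors allow). PD+MP stood apart with a difference of 41.3 points, and without it the mean was 11.3 points.

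Against matched cells, matrix and mesenchymal genes were higher in the members and cell cycle genes were lower. Among the 15943 genes tested, with Penk and the gate genes set aside, 262 (1.64%) were higher and 70 (0.439%) lower in Penk-positive cells (edgeR quasi-likelihood test on summed UMIs, pairs within tumor, adjusted p under 0.05). Counts in the gene lists below are to be read beside these shares. The median log2 fold change was 1.24 over the higher genes, −0.64 over the lower genes and −0.02 over all genes tested. Of the higher genes, 246 were higher in all 5 tumors, and 68 of the lower genes were lower in all 5. The count depended on single tumors: it fell to 23 higher and 0 lower without BP replicate 2, to 52 and 9 without MP, and to 126 and 10 without MP+BP. Without BP replicate 2, 617 genes were lower at an unadjusted p under 0.05, and all of the 256 higher and 70 lower genes that could still be tested kept their sign. Of 65 genes named by rule and called, 7 kept their call without each tumor in turn: Prrx1, Col5a2, Tbx18, C1qtnf7, Srpx, Bmp5 and A830012C17Rik. Each of the other 58 lost its call, or could no longer be tested, without at least 1 tumor, most often BP replicate 2 or MP.

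**Figure D2:**
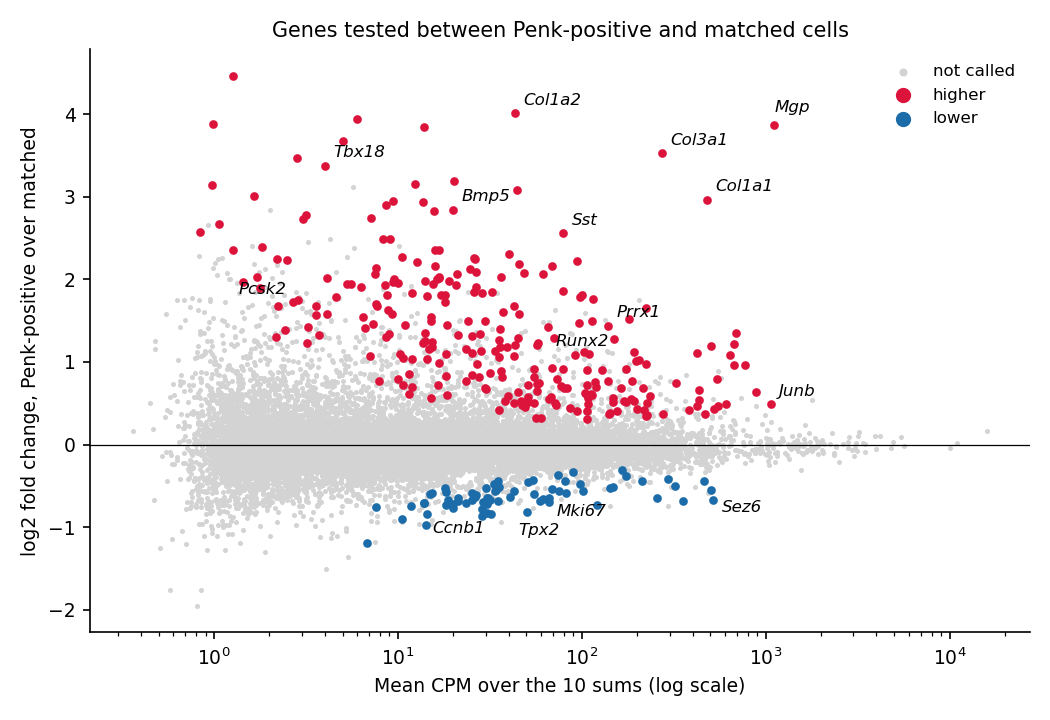
Log2 fold change of Penk-positive over matched cells (y axis) against the mean CPM over the 10 sums (x axis, log scale), 1 point per gene, with the 262 higher genes in red and the 70 lower genes in blue. The higher genes reach further from 0 than the lower ones, and Mgp, Col3a1 and Col1a1 combine high levels with log2 fold changes of 2.97 to 3.87.

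Prrx1, a homeobox factor of limb mesenchyme, rose in each tumor. It was at 116, 169, 219, 186 and 321 CPM in members and at 48.9, 52.3, 63.5, 80.9 and 128 CPM in matched cells, so only the matched cells of PD+MP lay above the members of another tumor. The log2 fold change was 1.44 ± 0.10 (SE; edgeR adjusted p = 0.00048), a 2.71-fold difference. Col5a2, a fibrillar collagen chain, was at 91.2 to 189 CPM in members and at 14.1 to 58.8 CPM in matched cells, groups that did not overlap (log2 fold change 1.79 ± 0.12; edgeR adjusted p = 0.00048). Tbx18, a T-box factor of perivascular and mesenchymal progenitors, was scarce, with 147 UMIs over the members and 42 over the 3 times as many matched cells (3.38 ± 0.28; edgeR adjusted p = 0.001).

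Chains of type I and type III collagen, the main fibrillar collagens of connective tissue, rose with Mgp. Col1a1 was at 339, 812, 469, 1219 and 1300 CPM in members and at 40.5, 136, 60.3, 400 and 42.5 CPM in matched cells. A Col1a1 UMI was found in 33.7%, 35.4%, 81.4%, 86.7% and 80.5% of members, against 13.5%, 10.9%, 28.7%, 59.4% and 11.4% of matched cells. In level, each tumor's members were higher than their own matched cells, and MP+BP had the highest level in matched cells. The log2 fold change was 2.97 ± 0.38 (edgeR adjusted p = 0.01), and the call was lost without BP replicate 2 (adjusted p = 0.067) or without MP (0.068). Col3a1 was at 338, 344, 324, 591 and 864 CPM in members and at 25.2, 48.1, 13.1, 150 and 19.7 CPM in matched cells, without overlap (3.53 ± 0.43; edgeR adjusted p = 0.0091). Mgp, which encodes matrix Gla protein, an inhibitor of calcification, spanned the widest range: 73.5, 393, 446, 1687 and 7967 CPM in members and 26.9, 13.0, 0.907, 236 and 298 CPM in matched cells (3.87 ± 0.62; edgeR adjusted p = 0.023). Col3a1 lost its call without BP replicate 2 (adjusted p = 0.056) or MP (0.055), and so did Mgp (0.14 and 0.073). Mgp in PD+MP was above any other tumor's members by more than 4-fold. Of the 22 genes of the mesenchymal list, 21 were tested, 11 rose, none fell, and the median log2 fold change was 0.91. Over all genes, 1.64% were called higher. The 11 were Fn1, Col1a1, Col1a2, Col3a1, Col5a2, Col6a1, Col6a2, Sparc, Postn, Snai2 and Prrx1. Vim, which encodes vimentin, and Zeb1 did not pass the test, at log2 fold changes of −0.29 and 0.01.

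**Figure D3:**
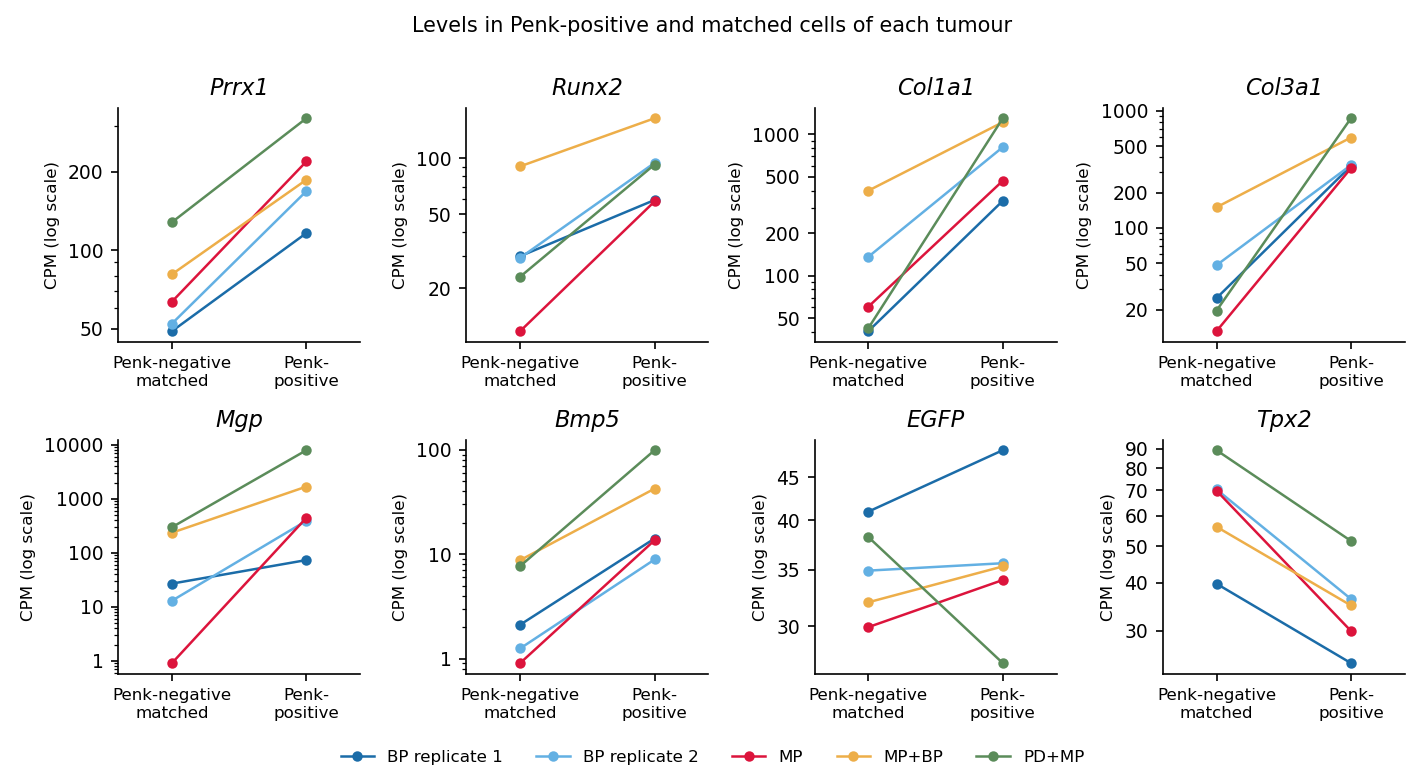
Levels (CPM, log scale) of 8 genes in matched Penk-negative and in Penk-positive cells, 1 line per tumor. Prrx1, Runx2, Col1a1, Col3a1, Mgp and Bmp5 were higher in the members of all 5 tumors and Tpx2 lower, whereas EGFP was higher in 4 and lower in PD+MP.

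Of the cartilage, bone and tendon list, Runx2 and Sox9 were among the few genes that rose. Runx2, the master factor of osteoblasts, was at 59.5, 94.2, 58.5, 163 and 92.3 CPM in members and at 29.7, 29.1, 11.8, 90.2 and 23.1 CPM in matched cells (log2 fold change 1.42 ± 0.18; edgeR adjusted p = 0.0095). Within each tumor members were higher, but the matched cells of MP+BP lay above the members of 2 other tumors. Sox9, the chondrocyte factor, was at 96.6 to 239 CPM in members and at 57.1 to 140 CPM in matched cells (0.76 ± 0.11; edgeR adjusted p = 0.018). Of the 29 genes of the list, 22 were tested, 5 rose (Sox9, Hapln1, Runx2, Spp1 and the tendon factor Mkx) and none fell, with a median log2 fold change of 0.89. The share of all genes called higher was 1.64%. Col2a1, the cartilage collagen, did not pass the test (−0.15 ± 0.08; edgeR adjusted p = 0.43). A Col2a1 UMI was present in 69.8% to 92.9% of members and in 72.9% to 94.9% of matched cells.

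Some genes of BMP and Wnt signaling rose, while most of those tested did not pass. Bmp5, a secreted BMP ligand of skeletal condensations, was at 14.1, 8.90, 13.6, 42.4 and 99.1 CPM in members and at 2.11, 1.25, 0.907, 8.77 and 7.69 CPM in matched cells, which did not overlap (log2 fold change 2.84 ± 0.21; edgeR adjusted p = 0.00057). Of the 30 genes of the Wnt and BMP target and feedback list, 29 were tested, 6 rose, among them Nkd2, Id2, Id3, Bmp5 and the BMP antagonist Chrdl1, and none fell, with a median of 0.52. Of all genes tested, 1.64% were called higher. Srpx, a secreted sushi-repeat protein, and C1qtnf7, a secreted C1q/TNF-related protein, rose by 2.94 ± 0.26 and 2.89 ± 0.20 on the log2 scale (edgeR adjusted p = 0.0015 and 0.00048).

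The same differences were smaller between cells of 1 cluster. The clusters were built on variable genes from which these genes were not left out, so matching within clusters can remove part of a difference by design. When matched cells were drawn from the member's own cluster, the log2 fold change of Prrx1 was 0.41 (edgeR adjusted p = 0.0047), of Col5a2 0.54 (0.025), of Bmp5 0.81 (0.005) and of Col1a1 0.72 (0.0076). Col3a1 (0.77; edgeR adjusted p = 0.071) and Mgp (0.93; adjusted p = 0.20) no longer passed. In the richest cluster of MP+BP, Col1a1 was at 2086 CPM in the 243 members and at 1760 CPM in the 626 Penk-negative cells, while the 283 members of the other clusters had 706 CPM. The richest cluster of PD+MP had 1627 CPM in its 114 members and 1706 CPM in its 115 Penk-negative cells. In BP replicate 1 the 61 members of the richest cluster had 2265 CPM. The tumor's 194 members elsewhere had 7.93 CPM, against 10.6 CPM in Penk-negative cells of those clusters. Outside the richest cluster, members of BP replicate 2, MP, MP+BP and PD+MP had 1090, 266, 706 and 833 CPM. The Penk-negative cells there had 163, 49.5, 315 and 45.7 CPM. Matching within clusters filled only 220 of 447 places in PD+MP. It no longer matched depth in MP+BP (median 11222 UMIs in members and 8590 in matched cells) and BP replicate 2 (12028 and 10509). It gave 256 higher and 20 lower genes, of which 148 and 6 were among the 262 and 70, and 33 of the 65 named calls were lost.

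Cell cycle genes were lower in the members. Tpx2, a spindle assembly factor, was at 24.7, 36.3, 29.9, 34.9 and 51.6 CPM in members and at 39.8, 70.4, 69.8, 56.2 and 89.2 CPM in matched cells, lower in each tumor (log2 fold change −0.81 ± 0.09; edgeR adjusted p = 0.0052). Mki67, the proliferation marker, was at 42.7, 50.6, 59.9, 32.2 and 74.6 CPM against 61.5, 89.4, 65.8, 54.5 and 129 CPM (−0.64 ± 0.10; edgeR adjusted p = 0.018), and an Mki67 UMI was found in 15.2% to 23.3% of members and in 19.3% to 29.5% of matched cells. All 30 genes of the cell cycle list had negative fold changes, with a median of −0.50. Of the 30, 9 fell (Mki67, Top2a, Ccnb1, Ccna2, Cenpf, Tpx2, Aurkb, Hmmr and Mcm6) and none rose, beside 0.439% of all genes called lower. The 10 largest decreases among called genes that were lower in 5 of 5 tumors were 0.76 to 0.97 on the log2 scale, and 8 of them were mitotic or histone genes: Hist3h2ba, Sgo1, Hist1h1b, Cep55, Ccnb1, Tpx2, Ect2 and Knstrn. The remaining 2 were Sntg1, a syntrophin, and Tecta. Within clusters the difference of Tpx2 was −0.20 (edgeR adjusted p = 0.34) and that of Mki67 −0.12 (adjusted p = 0.75), so these calls ended. Cell cycle genes were not left out of the clustering either, so this comparison cannot tell how far the difference holds between similar cells.

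Few epithelial genes passed the test, as was the case for all genes (1.64% called higher and 0.439% lower). Of 22 genes of the epithelial list, 19 were tested, none rose and 1 fell, Cldn3, a tight junction claudin, at 30.2, 21.4, 35.4, 12.1 and 38.0 CPM in members against 41.0, 38.9, 37.2, 22.2 and 73.1 CPM in matched cells (log2 fold change −0.68 ± 0.12; edgeR adjusted p = 0.031). The median of the list was 0.01, and its members went both ways: Krt8, a keratin, was at −1.11 ± 0.32 and Spint1, a protease inhibitor, at 0.64 ± 0.34 on the log2 scale, neither past the test (edgeR adjusted p = 0.14 and 0.41). Both were named after their values were seen. Epcam, the epithelial adhesion molecule, was lower in 4 of 5 tumors and did not pass (−0.41 ± 0.12; edgeR adjusted p = 0.15), with a UMI in 26.2% to 64.7% of members. In MP its level was 120 CPM in members and 98.9 CPM in matched cells.

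Among the opioid ligands, receptors, processing enzymes and peptidases tested, only the scavenger receptor and 1 convertase passed. Ackr3 was at 427, 394, 641, 661 and 446 CPM in members and at 413, 274, 383, 472 and 240 CPM in matched cells (log2 fold change 0.54 ± 0.11; edgeR adjusted p = 0.042). The difference was smallest in BP replicate 1, and the call was lost without BP replicate 2 (adjusted p = 0.20), MP (0.16) or MP+BP (0.12), and for members with 1 Penk UMI (0.08). Pcsk2, prohormone convertase 2, was at 9.02, 4.59, 0, 3.94 and 3.39 CPM in members and at 2.32, 1.44, 0.454, 1.76 and 0 CPM in matched cells (1.72 ± 0.35; edgeR adjusted p = 0.044). It was higher in 4 tumors and not detected in the 43 members of MP, and 2 antisense transcripts overlap it. Pcsk2 had 130 UMIs over the members and 121 over the matched cells. Its call was lost without BP replicate 1 (edgeR adjusted p = 0.15), BP replicate 2 (0.23), MP (0.094) or MP+BP (0.094). It was also lost in cells without any UMI of the excluded lineages (0.14) and for members with 1 Penk UMI (log2 fold change 0.45, adjusted p = 0.75). Pcsk1, the other classical neuroendocrine convertase, had 2 UMIs over all members and 5 over the matched cells. Of 15 genes of prohormone processing, 12 were tested, 1 rose and none fell, with a median log2 fold change of 0.36, beside 1.64% of all genes called higher. The broadly used processing genes were present: Ctsl was at 348 to 555 CPM in members, and Pam, the peptide amidating enzyme, at 83.5 to 201 CPM. Neither passed the test, at 0.31 ± 0.09 (edgeR adjusted p = 0.14) and 0.43 ± 0.11 (adjusted p = 0.09), though both were higher in 5 of 5 tumors.

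The opioid receptors themselves were scarce. Over the 1431 members, 10 UMIs of Oprd1 (delta), 4 of Oprm1 (mu), 8 of Oprk1 (kappa) and 6 of Oprl1 (nociceptin receptor) were counted, against 70, 10, 23 and 10 over the 4293 matched cells. Oprd1 was lower in 4 tumors and had no UMI in either set in PD+MP (log2 fold change −1.20 ± 0.48; edgeR adjusted p = 0.29). The other opioid precursors were also low: Pomc, Pnoc and Pdyn had 57, 92 and 12 UMIs in the members. None of the 9 enkephalin-degrading peptidases tested of 10 passed, and their median was −0.01. Mme was the largest of them, at 19.4, 33.0, 99.3, 76.7 and 45.5 CPM in members and 12.2, 5.52, 6.35, 45.3 and 2.94 CPM in matched cells (1.84 ± 0.43; edgeR adjusted p = 0.07), and it was named after its values were seen. Lnpep (−0.08 ± 0.12; edgeR adjusted p = 0.83) and Npepps (−0.04 ± 0.06; 0.82) had the highest levels.

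A second neuropeptide, Sst, was higher in the same cells. Sst, which encodes somatostatin, was at 57.9, 293, 10.9, 120 and 160 CPM in members and at 3.42, 54.3, 3.63, 80.8 and 6.56 CPM in matched cells, higher in all 5 tumors (log2 fold change 2.56 ± 0.52; edgeR adjusted p = 0.045). The call was lost without any one of BP replicate 1, BP replicate 2, MP or PD+MP (adjusted p = 0.096, 0.22, 0.13 and 0.055). Most members had no Sst UMI: it was found in 17 of 255, 88 of 458, 1 of 43, 57 of 526 and 21 of 149 members, or 2.33% to 19.2%, against 0.784% to 6.84% of matched cells. Sst and Adm, which encodes adrenomedullin, were the 2 of 14 tested genes among 28 other neuropeptides to rise, and none fell. Of 18 secretory granule genes, 9 were tested and 1 rose, Cadps2, a dense core vesicle priming factor (1.32 ± 0.24; edgeR adjusted p = 0.031). That call was lost without any 1 of the 5 tumors (adjusted p = 0.056 to 0.16) and with doublets removed (0.062). Of 44 neuronal genes 37 were tested and 1 rose, Stmn2, a tubulin-binding protein of growing axons (2.06 ± 0.42; edgeR adjusted p = 0.044), and none fell, a share near the 1.64% of all genes called higher. Stmn2 lost its call without BP replicate 1 (adjusted p = 0.11), BP replicate 2 (0.18) or MP (0.15) and within clusters (0.22). Insm1, a neuroendocrine factor, did not pass (−0.09 ± 0.16; edgeR adjusted p = 0.87). Of 64 neural transcription factors 54 were tested. Isl1 and Barhl2 rose (1.57 and 1.45; edgeR adjusted p = 0.037 and 0.042) and Sox3 fell (−0.51; adjusted p = 0.036).

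Counts in further lists stand beside the 1.64% of all genes called higher and the 0.439% called lower. Of the 25 immediate early and dissociation stress genes, 25 were tested, 7 rose (Fosb, Jun, Junb, Nr4a1, Nr4a2, Klf4 and Zfp36) and none fell, with a median log2 fold change of 0.43. Junb, an AP-1 subunit, was at 987 to 1406 CPM in members and at 621 to 1198 CPM in matched cells (0.49 ± 0.08; edgeR adjusted p = 0.026). Of 24 regulators of cAMP and AP-1 signaling, through which Penk transcription is known to be induced, 1 rose (Pde4a, a cAMP phosphodiesterase, 0.60 ± 0.11; edgeR adjusted p = 0.033), and the median was 0.01. Of 25 hypoxia and glycolysis genes 24 were tested, 2 rose (Adm and Ndrg1) and none fell, with a median of −0.08. Only 7 had a positive fold change. Their summed level was 2530, 2103, 2782, 2464 and 3035 CPM in members. In matched cells it was 2803, 2218, 2934, 2514 and 3685 CPM, above the members in every tumor. Of 33 limb and positional transcription factors 31 were tested, with only Hand2 higher (2.00 ± 0.34; edgeR adjusted p = 0.025) and only Meis1 lower (−0.38 ± 0.08; adjusted p = 0.041). Of the 185 genes that the study lists as activated during sarcomagenesis 170 were tested. Of these, 4 rose (Kif26b, Cbln4, Nell1 and Sst) and 6 fell (Kif26a, Tenm4, Sez6, Top2a, Aurkb and Neil3), with a median of 0.03. The share called higher was near that of all genes, whereas the share called lower was above the 0.439% of all genes. Top2a and Aurkb also belong to the cell cycle list. The summed level of the 185 genes was 10920, 11990, 10830, 12070 and 10580 CPM in members. In matched cells it was 11530, 12100, 11450, 13960 and 11970 CPM, so the members were lower in every tumor. The study chose that list with SyS cells, so it is not independent of them.

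**Figure D4:**
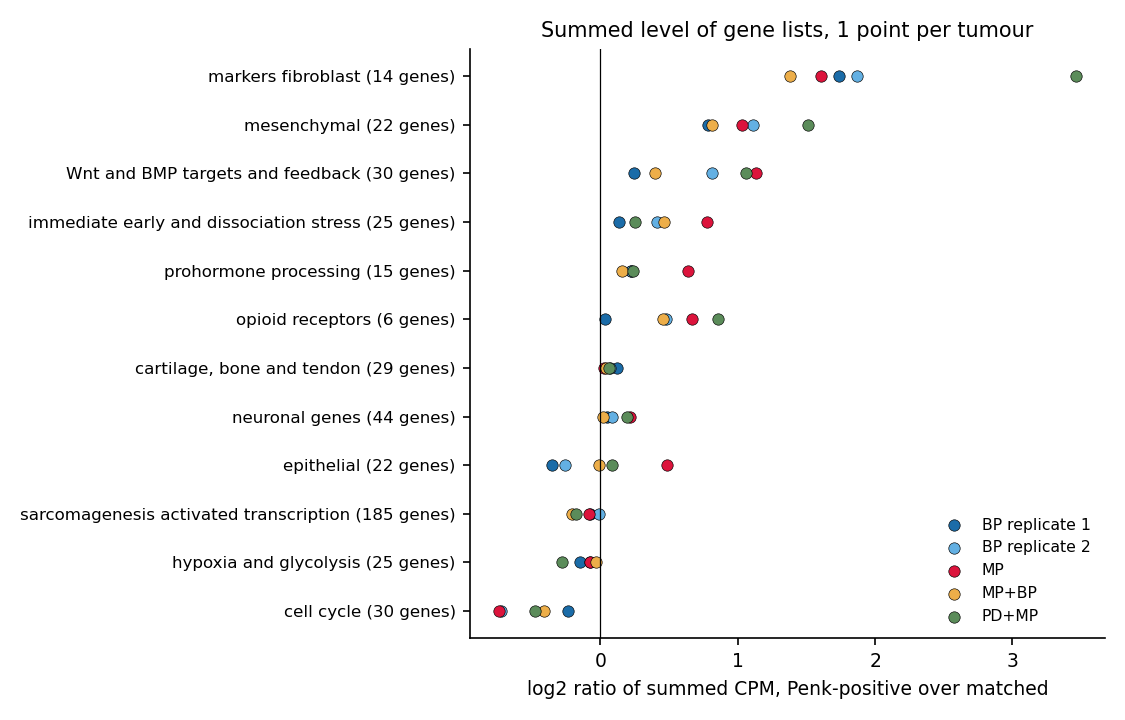
Log2 ratio of summed CPM in Penk-positive over matched cells (x axis) for 12 gene lists (y axis), 1 point per tumor. The fibroblast marker and mesenchymal lists, which share Col1a1 and Col3a1, were among those above 0 in all 5 tumors. The cell cycle, hypoxia and glycolysis, and sarcomagenesis activated lists were below 0 in all 5 tumors. The fibroblast list in PD+MP lies apart on the right.

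Fibroblast markers were also higher in the members, but Col1a1 and Col3a1 belong to both this list and the mesenchymal list. Of 14 fibroblast markers 9 were tested, 4 rose (Lum, Col1a1, Col3a1 and Fbln1) and none fell, with a median log2 fold change of 1.37. Their summed level was 928, 1486, 1079, 2301 and 2744 CPM in members, 279, 408, 355, 884 and 249 CPM in matched cells and 3102 to 43080 CPM in the fibroblast gate. Within the members' sums, Col1a1 was at 339, 812, 469, 1219 and 1300 CPM and Col3a1 at 338, 344, 324, 591 and 864 CPM. Several defining markers were at or near 0 in the members of 4 tumors but not in PD+MP. Dpt, Clec3b, Mfap5 and C3 were at 7.46, 6.11, 38.0 and 8.14 CPM in the members of PD+MP, against 0.226, 0, 1.58 and 0.679 CPM in its matched cells. In the members of the other 4 tumors each of these 4 genes stayed under 2 CPM. Over the tumors the fibroblast gate itself had Dpt at 0 to 597 CPM, Clec3b at 0 to 1123 CPM and Pi16 at 1.36 to 290 CPM. A sum over 7 fibroblast genes (Pdgfra, Dcn, Lum, Dpt, Pi16, Clec3b and Mfap5) was 112, 124, 121, 194 and 389 CPM in members. In matched cells it was 97.8, 94.8, 139, 161 and 50.2 CPM, so it was far higher in the members of PD+MP and lower in those of MP. The lower sum in MP came with Pdgfra, at 54.4 CPM in members and 100.2 CPM in matched cells, whereas Dcn was higher there (65.3 against 38.55 CPM). In the other tumors Pdgfra was at 88.9 to 115.4 CPM in members and at 31.45 to 97.7 CPM in matched cells. Dcn was at 11.3 to 210 CPM in members, at 1.58 to 60.1 CPM in matched cells and at 39.7 to 3696 CPM in the fibroblast gate (1.37 ± 0.51; edgeR adjusted p = 0.23). Penk itself was detected in 6 of 45, 6 of 55, 1 of 74, 8 of 77 and 23 of 136 cells of the fibroblast gate (1.35% to 16.9%), and EGFP in 0% to 16.4% of them. In each tumor the point value of this Penk share was above that of the SyS gate (6.07%, 5.95%, 0.825%, 7.63% and 2.23%, not thinned). Its exact 95% interval lay above the SyS share only in PD+MP (11.03 to 24.29). The intervals of the other tumors contained the SyS share: 5.054 to 26.79, 4.11 to 22.25, 0.03421 to 7.301 and 4.593 to 19.45. Thinned to 4000 UMIs the fibroblast gate's share was 9.52%, 11.3%, 0%, 10.4% and 11.7%, against 2.17%, 2.79%, 0.516%, 4.60% and 1.57% in the SyS gate. Its intervals were 2.656 to 22.62, 4.27 to 23.03, 0 to 5.28, 3.47 to 22.66 and 6.527 to 18.8. Those of MP, where 68 cells were deep enough, and MP+BP contained the SyS share, so no difference is shown there. Cells with at most 1 of 7 fibroblast genes gave 244 higher and 74 lower genes, of which 194 and 41 were among the 262 and 70. In those cells Prrx1 had a log2 fold change of 1.29 (edgeR adjusted p = 0.00031), Col3a1 2.98 (0.0032) and Col1a1 2.69 (0.015). The part of fibroblast RNA in the other differences was not tested.

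Of the markers of other cells, the endothelial list was higher as a sum in the members of all 5 tumors. Its sum was 336, 194, 332, 381 and 242 CPM in members and 305, 153, 197, 276 and 139 CPM in matched cells. Its part in the other differences was not tested. None of 9 tested macrophage markers and none of 7 tested pericyte markers passed. Of 10 tested endothelial markers Flt1 and Egfl7 rose (1.08 and 0.57; edgeR adjusted p = 0.023 and 0.039). Only 6 of the 10 had a positive log2 fold change, with a median of 0.12, and much of the rise of the sum lay in Flt1. Flt1 was at 106.3, 85.56, 118.4, 161.1 and 154.0 CPM in members and at 76.46, 36.85, 24.94, 86.17 and 70.15 CPM in matched cells. Of 5 tested neutrophil markers Mmp9, a matrix protease, rose (1.97; edgeR adjusted p = 0.002), and of 5 tested erythroid markers Hba-a1 fell (−1.20; adjusted p = 0.046), which has a near-identical copy, so its counts are uncertain. None of the tested T and NK cell (1 gene), Schwann (6), skeletal muscle (3) or keratinocyte (2) markers passed. Summed levels in members were 43.6 to 70.6 CPM for the macrophage and 49.5 to 192 CPM for the pericyte list, against 24.0 to 58.2 and 38.0 to 157 CPM in matched cells. Members also carried more doublet calls in BP replicate 2 (10.7% against 7.35%), MP+BP (13.5% against 6.08%) and PD+MP (11.4% against 3.58%), while BP replicate 1 (6.67% against 6.93%) and MP (0% against 5.43%) did not. With the called doublets removed, 297 genes were higher and 87 lower, of which 243 and 63 were shared with the main comparison.

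The gene next to Penk rose as well. A830012C17Rik lies on chromosome 4 at 4138321 to 4188703, on the plus strand (GRCm38, ENSMUSG00000085996), and overlaps Penk by 499 bases on the opposite strand. It was at 4.06, 5.84, 9.53, 7.01 and 31.9 CPM in members and at 0.352, 0.789, 0, 0.451 and 0.226 CPM in matched cells (log2 fold change 3.95 ± 0.43; edgeR adjusted p = 0.0052). The groups did not overlap, and the highest level was in PD+MP, where Penk was also highest. Strand use in the counting is not stated in the sources used here, so it is not known whether reads of the 2 genes were kept apart where they overlap. Whether the choice of members on Penk carried into this value was not tested.

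**Figure D5:**
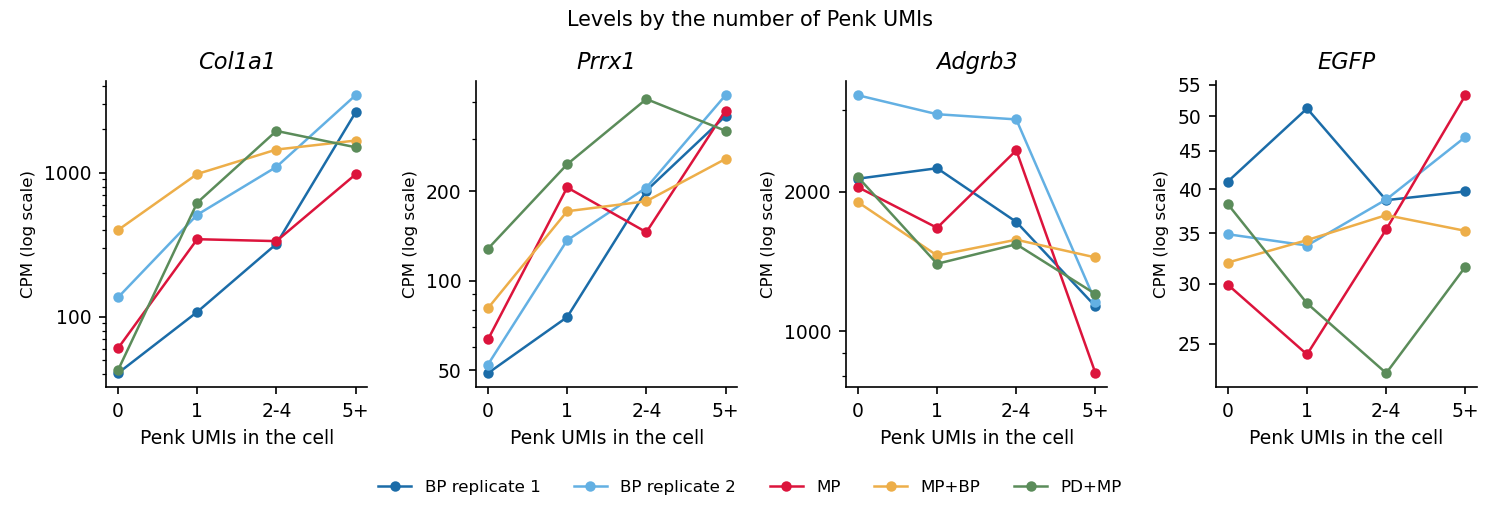
Levels (CPM, log scale) of Col1a1, Prrx1, Adgrb3 and EGFP in cells with 0 (matched), 1, 2 to 4, and 5 or more Penk UMIs (x axis), 1 line per tumor. Col1a1 and Prrx1 were higher in cells with 5 or more UMIs than in matched cells of every tumor, and Adgrb3 lower.

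Levels by Penk count followed no single order over genes and tumors. In the 22, 34, 7, 63 and 41 members with at least 5 Penk UMIs, Col1a1 was at 2620, 3446, 972, 1670 and 1500 CPM. In members with 1 UMI it was at 108, 510, 345, 978 and 619 CPM, still above matched cells in each tumor, and in members with 2 to 4 UMIs at 320, 1096, 335, 1446 and 1948 CPM. Its level was higher in each class than in the one before in BP replicate 1, BP replicate 2 and MP+BP, but not in MP or PD+MP. In PD+MP, Bmp5 was at 158, 83.9 and 20.1 CPM in cells with 1, 2 to 4, and 5 or more UMIs, and Col3a1 at 654, 1486 and 287 CPM. Adgrb3 was at 1132, 1159, 812, 1444 and 1204 CPM in members with at least 5 UMIs and at 2250, 2943, 1673, 1458 and 1399 CPM in those with 1. EGFP was at 31.6 to 53.3 CPM in members with at least 5 UMIs. Tested against their own matched cells, members with a single Penk UMI had 119 higher and 10 lower genes, and Prrx1 was among the higher (log2 fold change 1.13; edgeR adjusted p = 0.0042). Members with at least 2 UMIs had 546 higher and 181 lower genes, and Prrx1 was higher by 1.84 (adjusted p = 0.00055). These 2 counts rest on different numbers of cells and the difference between them was not tested.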

How the data were processed

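Single cells of 5 tumors were profiled with the Chromium 3ʹ v3.1 kit, and the authors deposited UMI count matrices of called cells made with Cell Ranger (7.2.0 per the file headers) on mm10. Counts were used as deposited and held 8931 to 11565 cells and 89996321 to 118649103 UMIs per tumor. No free RNA was subtracted. Library pairs shared 15 to 33 cell barcodes. Doublets were scored with a Scrublet-type simulation (expected share 5.35% to 8.27%) and removed only as an alternative. Cells were clustered per tumor (2000 variable genes without Penk and the gate genes, 30 principal components, Leiden resolution 1; scanpy 1.11.5). Other gates required at least 5 markers of a type and at most 2 SyS genes. UMIs were summed over members and over matched cells and tested with edgeR 4.0.16 (TMM, filterByExpr, quasi-likelihood, tumor as a block, Benjamini-Hochberg). A check on simulated counts used the same dispersion for every gene and changes equal in all tumors. It therefore does not cover effects that differ between tumors, as they did here. The block is the tumor, since both sums of a pair come from it, and p-values measure the spread between these 5 tumors. Cells are not replicates. Shares have exact binomial intervals at 95%; 3 counts were taken as the limit of a count of 0. DESeq2 1.42.0, other gates, thresholds, matchings and filters, and leaving out each tumor were tried.

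Genes were named by rule: Penk, Sox11 and Adgrb3; called genes of the enkephalin pathway lists with 4 more of the highest level; up to 15 largest called increases and 10 largest called decreases with one sign in 5 of 5 tumors and at least 50 UMIs; Sst, Insm1, Col2a1, Epcam and Mki67; and up to 4 called genes of each other list. Members, lists and comparisons were chosen with earlier results of these data known. Coordinates are from GENCODE M21 (GRCm38). A gene named by the rule is not reported here.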

Additional observations from a re-analysis of the deposited data

Results flagged for a closer look

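A test for a value far from the rest of its group was run over the 5 tumors for 53 measures, of which chance would flag about 1 in 20, and 4 were flagged. The difference in Penk-positive neighbors was 41.3 percentage points in PD+MP, against 9.15 to 14.0 in the other tumors. The log2 ratio of Mkx between members and matched cells was 4.58 in PD+MP, against 1.29 to 2.00 elsewhere. That of Nkd2, a Wnt antagonist, was −1.22 in MP, where the members had 1.36 CPM, while it was 1.98 to 3.06 in the other tumors. That of Nell1, a secreted osteogenic protein, was 0.33 in BP replicate 1, against 0.90 to 1.11 elsewhere. Their causes were not tested.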

How the results depend on the processing

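Of 65 named genes that were called, all kept their sign under every one of 21 alternatives in which they could be fitted, and none kept its call under all of them. They were chosen as called in these same data, so a kept sign is no separate support. Counts of higher and lower genes were 546 and 181 with at least 2 Penk UMIs, 576 and 165 with DESeq2, 519 and 257 without a filter on low counts, and 119 and 10 for members with 1 Penk UMI. They were 0 and 0 with no replicate block, where 424 and 133 of 14670 genes passed an unadjusted p of 0.05 in edgeR. Together these are fewer than the share of 0.05 that would pass without any difference. Matching within clusters gave 20 lower genes, of which 6 were among the 70. Leaving out each tumor gave 23 to 378 higher and 0 to 74 lower genes. The cause of these changes was not tested. The alternatives with at most 1 fibroblast gene and with 1 Penk UMI were chosen after seeing the data. The neighbor difference was 11.3 to 19.4 points when a tumor was left out, where the exact sign-flip test of 4 tumors cannot pass 0.05, and 17.4 to 19.0 points under the other alternatives. Thinned to 2000 UMIs, Penk-positive shares were 1.43%, 1.96%, 0.265%, 2.89% and 1.17%, and not thinned 6.07%, 5.95%, 0.825%, 7.63% and 2.23%. With at least 2 Penk UMIs and no thinning they were 1.48%, 1.77%, 0.364%, 3.00% and 1.30%, so the share depends on depth. Only 43 members were found in MP, which limits its values.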
